A study of Bos taurus with 4 samples.

Results

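Noncoding candidate transcripts at DTNA and SGCD, genes of the dystrophin complex, were examined in 4 skeletal muscles of cattle. Members were all transcripts whose identifier names DTNA or SGCD as the associated gene, 52 of the 63845 transcripts in the 4 tables. DTNA had 26 transcripts at 24 loci, all within its introns. SGCD had 25 within its introns and 1 that overlaps an exon on the opposite strand (antisense), at 26 loci. The genes were chosen by their measured levels, from introns of DTNA that stood high in longissimus thoraci and introns of SGCD that stood low in gluteus, so the levels below are a description and carry no test.

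The 4 muscles were longissimus thoraci (a muscle of the back, spelled as in the labels), scapula muscle (shoulder blade), gluteus (rump) and intercostal muscle (between the ribs). All came from Hereford females aged 18 months, fattened on corn silage in 1 feedlot. Per the labels, equal RNA of 3 animals went into 1 pool per muscle, so each muscle is 1 library and no spread between animals can be given. In bulk muscle, fewer cells of a type and less RNA per cell cannot be told apart.

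Dystrophin anchors the actin cytoskeleton of the muscle fibre to dystroglycan in the membrane, and dystroglycan binds laminin outside the cell. DTNA encodes alpha-dystrobrevin, a cytoplasmic relative of dystrophin that binds dystrophin and the syntrophins and takes part in signalling and in the upkeep of the neuromuscular junction. SGCD encodes delta-sarcoglycan, a membrane protein of the sarcoglycan subcomplex, which steadies dystroglycan and whose loss causes a limb-girdle muscular dystrophy. The values here are those of noncoding candidates at these genes. The intronic values do not measure the messenger RNAs, and RNA from a gene's unspliced precursor and a separate intronic RNA cannot be told apart in them. The antisense SGCD value may include messenger RNA reads, since counting by strand is not known.

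Values are FPKM (fragments per kilobase, relative to a library total) as the authors deposited them, and a range after a value is its 95% Poisson interval from recovered reads. Sums are also given as reads-per-million (RPM) of that total. All read counts below are recovered ones, which are lower bounds. The totals were 2132255 reads for longissimus thoraci, 1107493 for gluteus, 1511933 for scapula muscle and 1318644 for intercostal muscle. One read on 300 nucleotides is worth 1.56 FPKM in the first and 3.01 in gluteus. Recovered reads of all listed transcripts came to between 99.0% and 102.6% of these totals. FPKM and RPM are thus close to shares of the reads on listed candidates. The share of transcripts listed did not follow the totals, since scapula muscle listed more than longissimus thoraci. Of all 26452 intronic transcripts, 46.5% were listed in longissimus thoraci, 28.1% in gluteus, 58.0% in scapula muscle and 38.6% in intercostal muscle. The longissimus thoraci library stood apart in another way, since it lacked 170 of the 2994 transcripts that had at least 20 reads in every other library, against 6 to 73 such transcripts for the other libraries. No upper limit and no fold is given where a muscle does not list a transcript.

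DTNA was covered in longissimus thoraci by 15 of its 26 intronic transcripts, in scapula muscle by 12, in gluteus by 11 and in intercostal muscle by 8. Their summed level was 881 FPKM in longissimus thoraci, 547 in gluteus, 414 in scapula muscle and 282 in intercostal muscle. In reads the same sums came to 498 (469 to 529), 451 (413 to 493), 285 (259 to 313) and 211 (187 to 237) RPM, in that order of muscles. Longissimus thoraci and gluteus therefore stood highest, with intervals that overlap in RPM, and intercostal muscle lowest. As a share of all intronic reads of the library, DTNA made up 0.281% in longissimus thoraci, 0.320% in gluteus, 0.140% in scapula muscle and 0.119% in intercostal muscle. On this scale gluteus came first, since fewer of its reads were intronic.

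The 2 most abundant DTNA transcripts, TCONS_00141861 and TCONS_00140157, lay at the same locus and may count some reads in common. TCONS_00141861 stood at 103 (92.2 to 115) FPKM in longissimus thoraci, 156 (138 to 176) in gluteus, 84.2 (72.8 to 96.9) in scapula muscle and 61.9 (51.5 to 73.8) in intercostal muscle. TCONS_00140157 stood at 125 (112 to 139) FPKM in longissimus thoraci, 123 (105 to 142) in gluteus, 70.5 (59.2 to 83.5) in scapula muscle and 52.3 (42.0 to 64.5) in intercostal muscle. Gluteus was highest for the first of the pair and level with longissimus thoraci for the second, and intercostal muscle was lowest for both. This locus held 63.6% of the recovered DTNA intronic reads in longissimus thoraci, 87.6% in gluteus, 76.8% in scapula muscle and 76.6% in intercostal muscle. In FPKM its part was smaller, at 228 of 881, 279 of 547, 155 of 414 and 114 of 282 in the same order.

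Away from that locus DTNA showed another order. The other 24 transcripts summed to 181 (164 to 201) RPM in longissimus thoraci, 56.0 (42.9 to 71.8) in gluteus, 66.1 (53.8 to 80.4) in scapula muscle and 49.3 (38.0 to 62.8) in intercostal muscle. Longissimus thoraci lay above the intervals of the other 3 muscles, whose own intervals overlapped. In FPKM the sum in longissimus thoraci, 653, was 2.52 times the median of the others, against 2.13 times with the locus included. In gluteus DTNA thus stood high mainly through 1 locus. The other transcripts still held 269 of its 547 FPKM in gluteus, near their 259 FPKM in scapula muscle. The high longissimus thoraci level came from that locus and from the others.

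Among those others, TCONS_00140170 had the third highest mean level of DTNA, with 176 (125 to 240) FPKM in longissimus thoraci and 12.7 (1.54 to 45.9) in scapula muscle, the latter from 2 reads, and no listed value in gluteus or intercostal muscle. TCONS_00140167 stood at 66.7 (45.3 to 94.7) FPKM in longissimus thoraci and 36.4 (18.8 to 63.6) in scapula muscle and was likewise not listed in the remaining muscles. Both were therefore listed in the muscles of the back and shoulder blade only. TCONS_00143297 was listed in scapula muscle, at 63.5 (40.7 to 94.5) FPKM, and in intercostal muscle, at 39.4 (21.0 to 67.4), and had no value in longissimus thoraci or gluteus. TCONS_00140160, listed in every muscle, stood at 64.9 (51.0 to 81.3) FPKM in longissimus thoraci, 8.33 (2.70 to 19.4) in gluteus, 7.32 (2.69 to 15.9) in scapula muscle and 21.0 (11.7 to 34.6) in intercostal muscle. For it too longissimus thoraci lay above the intervals of the others.

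The candidates within DTNA did not share one pattern. At 1 locus, TCONS_00140155 was listed in longissimus thoraci, gluteus and intercostal muscle, at 40.4, 30.0 and 28.2 FPKM, and TCONS_00141859 in scapula muscle alone, at 60.3 (39.8 to 87.8). Of the 26 transcripts, 15 were listed in 1 muscle, 5 in 2, 3 in 3 and 3 in all 4. Across all intronic transcripts 55.0% were listed in 1 muscle and 6.87% in all 4, compared with 57.7% and 11.5% for DTNA. Those listed in longissimus thoraci alone numbered 6, between 14.6 and 42.6 FPKM. Another 3 were listed in scapula muscle alone, between 26.6 and 60.3 FPKM, 5 in gluteus alone, between 11.9 and 48.2, and 1 in intercostal muscle alone, at 42.5. These made up 23.1%, 11.5%, 19.2% and 3.85% of the DTNA transcripts, from longissimus thoraci to intercostal muscle. Over all intronic transcripts the shares were 19.3%, 21.0%, 5.41% and 9.27%, so the longissimus thoraci count was near its share. The strongest of the 5 in gluteus by FPKM, TCONS_00144291, has 4 recovered reads on a recovered length of 75 nucleotides (13.1 to 123 FPKM). Both are lower bounds, so its true reads may be more.

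**Figure D1:**
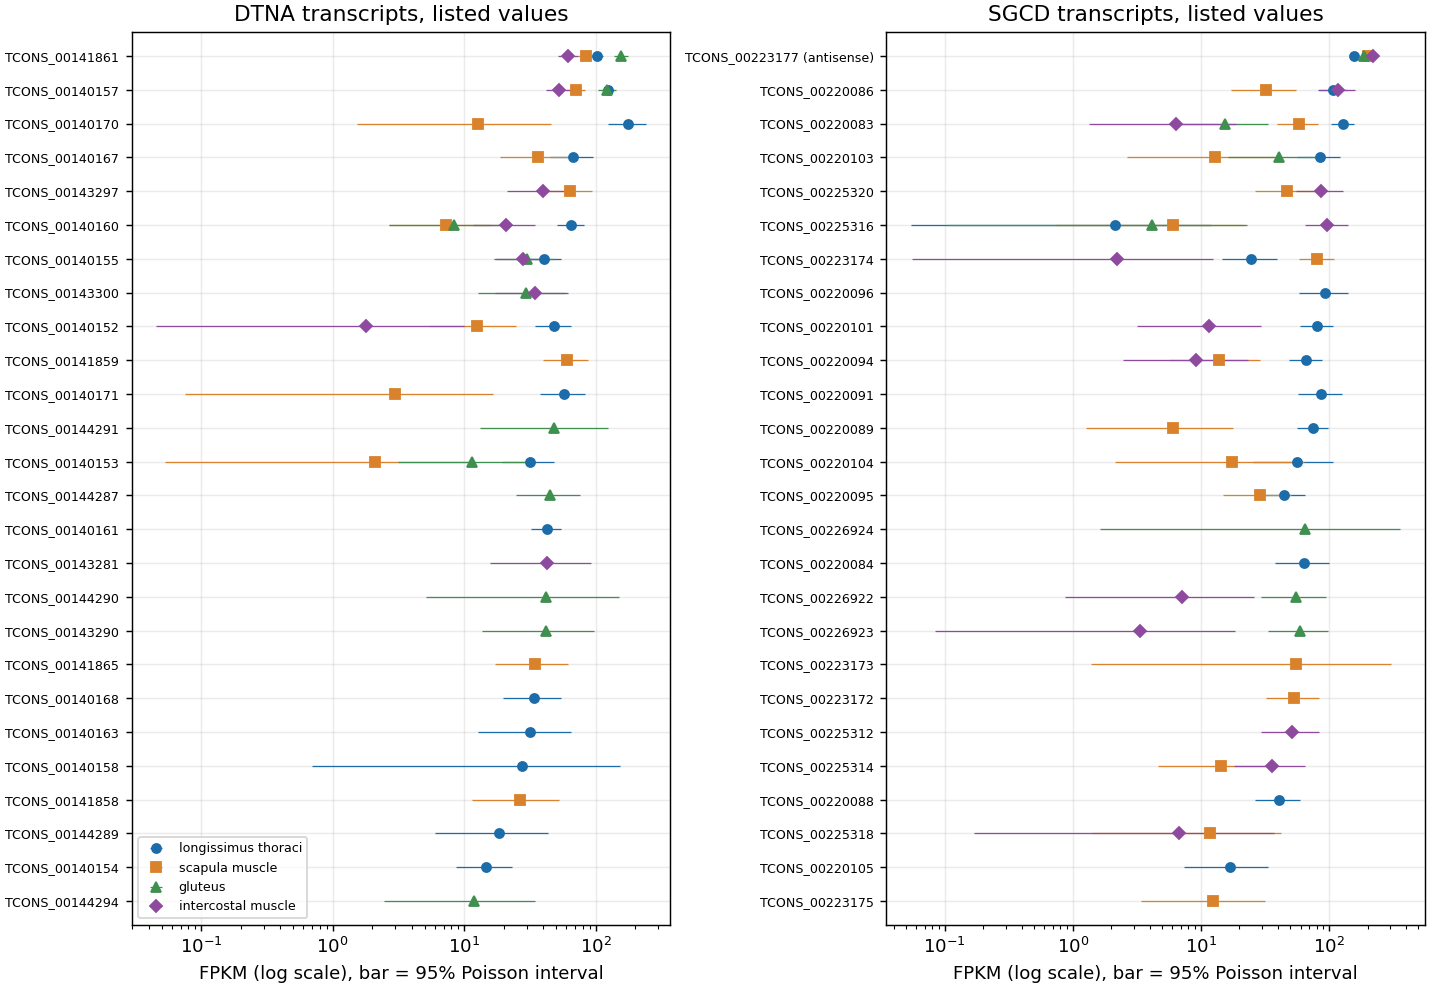
FPKM of every DTNA transcript (left) and SGCD transcript (right) in each muscle, on a log axis, ordered by mean level over the 4 libraries; points are listed values, bars are 95% Poisson intervals, and a missing point means that the muscle does not list the transcript. The antisense SGCD transcript (156 to 221 FPKM) and the pair at the leading DTNA locus (61.9 to 156 and 52.3 to 125 FPKM) have a point in all 4 muscles, and most of the remaining rows hold 1 or 2 points with wide intervals.

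Calls by size were made for each muscle. A transcript counted as higher or lower where log2 of (FPKM + 1) over (median of the other 3 muscles + 1) was at least 1 in size, provided some library reached 1 FPKM, which held for all 52 members. In longissimus thoraci 12 of the 26 DTNA transcripts were higher and 2 lower, where 38.4% of all intronic transcripts were higher and 20.3% lower. Scapula muscle had 8 higher and 4 lower (46.7% and 11.5% of all intronic ones), gluteus 7 and 6 (17.9% and 26.2%) and intercostal muscle 4 and 6 (27.5% and 19.5%). The median log2 ratio of the 26 was 0.66 in longissimus thoraci and 0 in each of the other muscles. Over all intronic transcripts it was 0.24 in scapula muscle and 0 in the others. With at least 10 recovered reads required in 1 library, the DTNA transcripts higher in gluteus numbered 3 in place of 7. This filter may also drop transcripts whose reads are underestimated.

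SGCD introns differed more than DTNA introns between longissimus thoraci and gluteus. The 25 intronic transcripts summed to 972 FPKM in longissimus thoraci, 240 in gluteus, 452 in scapula muscle and 436 in intercostal muscle. In reads the sums were 227 (207 to 248) RPM in longissimus thoraci, 38.8 (28.1 to 52.3) in gluteus, 106 (90.7 to 124) in scapula muscle and 103 (86.5 to 122) in intercostal muscle. Longissimus thoraci lay above the intervals of the others and gluteus below them, and scapula and intercostal muscle did not differ beyond theirs. The FPKM sum in longissimus thoraci was 4.05 times that in gluteus, 2.15 times that in scapula muscle and 2.23 times that in intercostal muscle. Gluteus listed 6 of the 25 transcripts, from 43 recovered reads in all, while longissimus thoraci and scapula muscle listed 15 each and intercostal muscle 12. In gluteus TCONS_00226924 gave 64.5 of the 240 FPKM from 1 recovered read, so the RPM sum there may be too low.

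The strongest SGCD intron transcript by mean level, TCONS_00220086, stood at 108 (82.3 to 138) FPKM in longissimus thoraci, 32.3 (17.2 to 55.3) in scapula muscle and 117 (83.9 to 159) in intercostal muscle, with no value in gluteus. TCONS_00220083, the next, was listed everywhere, at 129 (105 to 157) FPKM in longissimus thoraci, 15.3 (5.63 to 33.4) in gluteus, 58.1 (39.5 to 82.4) in scapula muscle and 6.44 (1.33 to 18.8) in intercostal muscle. Intercostal muscle was thus level with longissimus thoraci for the first and far below it for the second. TCONS_00220103 stood at 84.7 (56.3 to 122) FPKM in longissimus thoraci, 12.8 (2.64 to 37.4) in scapula muscle and 40.8 (16.4 to 84.0) in gluteus, with no value in intercostal muscle. TCONS_00225320 was listed in scapula muscle, at 47.5 (26.6 to 78.3) FPKM, and in intercostal muscle, at 87.1 (55.8 to 130), but not in longissimus thoraci or gluteus.

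Some SGCD transcripts were highest in another muscle than longissimus thoraci. TCONS_00225316 had 97.4 (64.7 to 141) FPKM in intercostal muscle, against 2.15 (0.0545 to 12.0) in longissimus thoraci, 6.07 (0.735 to 21.9) in scapula muscle and 4.14 (0.105 to 23.1) in gluteus, which rest on 1 or 2 reads each. TCONS_00223174, chosen after its values were seen, was highest in scapula muscle at 81.2 (58.5 to 110) FPKM, with 24.7 (14.6 to 39.0) in longissimus thoraci and 2.22 (0.0561 to 12.4) in intercostal muscle. TCONS_00226923 and TCONS_00226922, chosen in the same way, stood at 59.4 (33.2 to 98.0) and 55.6 (29.6 to 95.1) FPKM in gluteus, with 3.33 and 7.19 in intercostal muscle and no value elsewhere. In all, 12 of the 25 had their highest value in longissimus thoraci, 3 in gluteus, 5 in scapula muscle and 5 in intercostal muscle. Of all intronic transcripts, 33.9% had their highest value in longissimus thoraci, 12.4% in gluteus, 34.6% in scapula muscle and 19.1% in intercostal muscle.

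By the size rule 14 of the 25 SGCD intronic transcripts were higher and 6 lower in longissimus thoraci (56% and 24%, against 38.4% and 20.3% of all intronic ones). There were 11 higher and 5 lower in scapula muscle (44% and 20%, against 46.7% and 11.5%). Gluteus had 4 and 11 (16% and 44%, against 17.9% and 26.2%) and intercostal muscle 9 and 6 (36% and 24%, against 27.5% and 19.5%). The median log2 ratio of the 25 was 2.63 in longissimus thoraci, 0.46 in scapula muscle and 0 in the other muscles, where over all intronic transcripts it was 0.24 in scapula muscle and 0 in the others. Of the 11 called lower in gluteus 1 was listed there, and the other 10 had no value. With at least 10 reads required in 1 library, 7 in place of 11 were higher in scapula muscle. Of the 25, 10 were listed in 1 muscle, 9 in 2, 4 in 3 and 2 in all 4. That is 40% in 1 muscle and 8% in all 4, against 55.0% and 6.87% of all intronic transcripts.

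The antisense SGCD transcript, TCONS_00223177, did not follow the introns. It stood at 156 (148 to 165) FPKM in longissimus thoraci, 188 (175 to 201) in gluteus, 201 (189.5 to 212) in scapula muscle and 221 (208 to 234) in intercostal muscle. Longissimus thoraci, where the introns were highest, was the lowest here, and gluteus, where they were lowest, lay with scapula muscle within counting error. The highest value was 1.41 times the lowest, and 75 of the 1420 antisense transcripts listed in all 4 muscles varied less. The median over the 1420 was 2.95 times. The transcript carried 1317, 1200, 823 and 1150 reads in longissimus thoraci, scapula muscle, gluteus and intercostal muscle. It thus held 2.72 reads per SGCD intronic read in longissimus thoraci, 19.1 in gluteus, 7.45 in scapula muscle and 8.46 in intercostal muscle. Since recovered reads are lower bounds, these ratios are approximate. No source used here says whether reads were counted by strand, so reads of the SGCD messenger RNA and of this transcript cannot be told apart. DTNA had no antisense candidate.

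**Figure D2:**
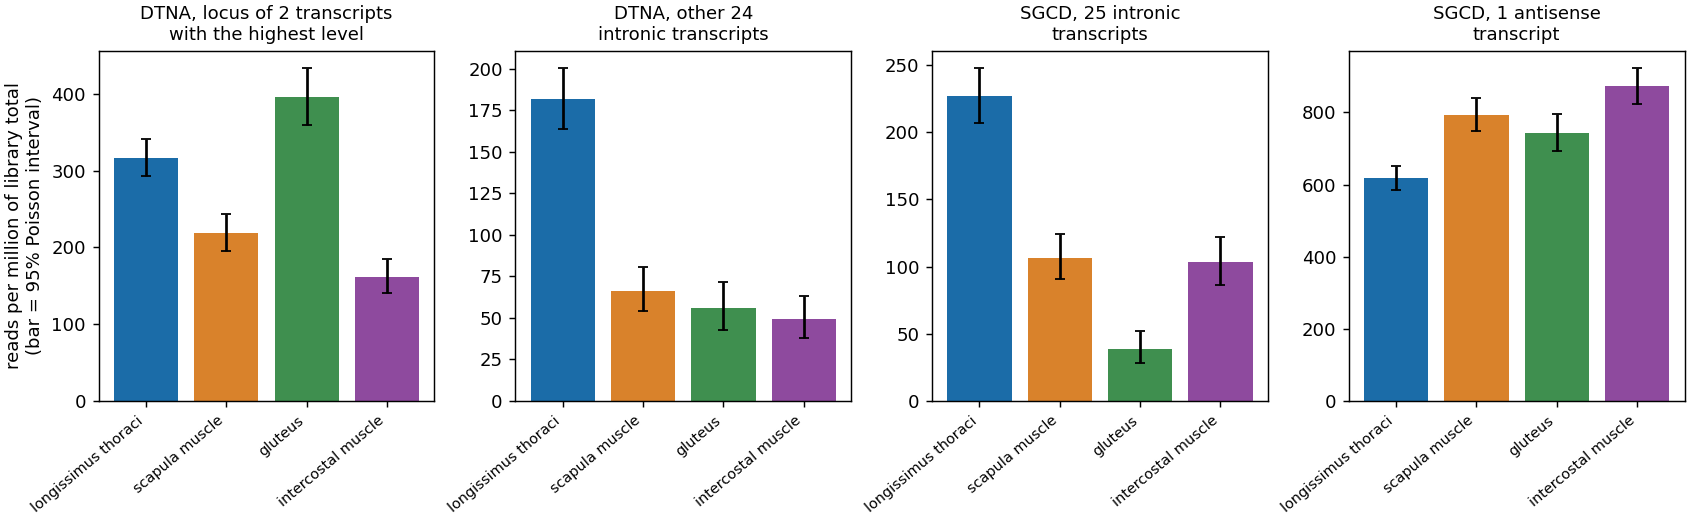
RPM of the library total in each muscle for the leading DTNA locus (2 transcripts), the other 24 DTNA intronic transcripts, the 25 SGCD intronic transcripts and the antisense SGCD transcript; each panel has its own linear axis from 0 and bars show 95% Poisson intervals. Longissimus thoraci is highest in the middle panels, gluteus at the DTNA locus (395 RPM) and intercostal muscle for the antisense transcript (872 RPM).

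Set against other genes with intronic candidates, DTNA and SGCD were rich in them. Of 5520 host genes, 124 had more intronic transcripts than DTNA and 137 more than SGCD, around a median of 2 per gene. Among the 602 hosts with 10 or more intronic transcripts and reads in every muscle, 277 (46.0%) had their highest sum in longissimus thoraci and 329 (54.7%) their lowest in gluteus. The log2 ratio of the summed FPKM to the median of the other muscles was 1.09 for DTNA and 1.16 for SGCD in longissimus thoraci, against a median over the hosts of 0.66, and 191 and 171 hosts stood higher. In gluteus SGCD had a ratio of -0.91, next to the median host at -0.92. DTNA there had 0.40, with 58 hosts higher, and -0.24 when the intercostal library was left out of the median. In scapula muscle DTNA had -0.40 and SGCD 0.05, against a median host at 0.57, with 528 and 449 hosts higher. The low gluteus sum of SGCD was thus near that of the middle host, while DTNA lay toward the high end in gluteus and toward the low end in scapula muscle.

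The hosts whose pattern over the 4 muscles was most like each gene were ranked by the root mean square difference of their centred log2 sums (1 library per muscle, 601 other hosts). Nearest to DTNA were FNDC3B at 0.10, EXOC4, a subunit of the exocyst, at 0.13, ZDHHC14 and LRBA at 0.14 and 0.15, and FHOD3, a formin of the sarcomere, at 0.18. Nearest to SGCD were LIMCH1 at 0.10, B3GALNT2, a glycosyltransferase that modifies dystroglycan, at 0.11, PPM1L and PHIP at 0.12 and 0.15, and FAM48A at 0.16. FNDC3B, for instance, summed to 1087 FPKM in longissimus thoraci, 707 in gluteus, 607 in scapula muscle and 400.3 in intercostal muscle. SGCD ranked 197th in likeness to DTNA, at 0.68, so many other hosts lay nearer to DTNA than SGCD did.

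Other genes of the dystrophin complex were taken from a list of 17, of which 12 had candidates, 82 transcripts in all. In longissimus thoraci 42 of these were higher and 11 lower, where 37.2% of all transcripts were higher and 21.3% lower. In scapula muscle there were 34 and 4 (43.2% and 11.3% of all), in gluteus 12 and 18 (18.6% and 23.7%) and in intercostal muscle 16 and 19 (26.4% and 17.9%). Of the 82, 81 were intronic, as were 39 of 39 in the laminin and integrin list below. In the glycosylation list 85 of 87 were intronic, and in the cytoskeletal list 40 of 42. The shares of all intronic transcripts given above for DTNA are thus the closer background for these lists. The median log2 ratio of the 82 was 1.42 in longissimus thoraci and 0 in the other muscles. SNTB1 and UTRN held most of the list, and they pointed in opposite directions.

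SNTB1, beta-1-syntrophin, an adaptor that binds dystrophin and dystrobrevin, had 34 intronic transcripts. Their sum was 310 (287 to 335) RPM in longissimus thoraci, 11.7 (6.25 to 20.1) in gluteus, 84.7 (70.6 to 101) in scapula muscle and 69.8 (56.2 to 85.6) in intercostal muscle. In RPM this is the order of the SGCD introns. In FPKM SNTB1 stood at 290 in intercostal muscle and 272 in scapula muscle, the reverse of the SGCD order there. Of the 34, 29 were called higher in longissimus thoraci, where 38.4% of all intronic transcripts were. UTRN, utrophin, the relative of dystrophin found at the neuromuscular junction, had 25 intronic transcripts that summed to 7.50 (4.29 to 12.2) RPM in longissimus thoraci, 50.6 (38.2 to 65.7) in gluteus, 89.95 (75.5 to 106) in scapula muscle and 49.3 (38.0 to 62.8) in intercostal muscle. Longissimus thoraci, highest for SNTB1 and SGCD beyond the counting intervals, was lowest for UTRN. In FPKM the UTRN gap was smaller, with sums of 125 in longissimus thoraci, 179 in gluteus, 485 in scapula muscle and 192 in intercostal muscle. The UTRN sum in longissimus thoraci was 0.65 times the median of the others in FPKM and 0.15 times in RPM. DMD, dystrophin itself, falls outside the naming rule with 4 intronic transcripts, which had 20 reads in longissimus thoraci, 20 in gluteus, 3 in scapula muscle and 30 in intercostal muscle.

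SGCA and SGCB, alpha- and beta-sarcoglycan, had few candidates, with 1 and 2 intronic transcripts. These were not listed in intercostal muscle and summed to between 30.7 and 64.2 FPKM elsewhere. SGCA was highest in scapula muscle, at 57.3 FPKM, and SGCB in gluteus, at 64.2 FPKM. Both fall outside the naming rule and are given because they share the subcomplex with SGCD.

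Genes outside the complex that act on dystroglycan or meet its ligand were read the same way. The laminin and integrin list (8 of 9 genes, 39 transcripts) had 20 higher and 4 lower in longissimus thoraci (51.3% and 10.3%, against 37.2% and 21.3% of all transcripts) and 5 and 6 in gluteus (12.8% and 15.4%, against 18.6% and 23.7%). It had 16 and 4 in scapula muscle (41.0% and 10.3%, against 43.2% and 11.3%) and 7 and 7 in intercostal muscle (17.9% each, against 26.4% and 17.9%). In it LAMA2, the laminin chain that dystroglycan binds in muscle, summed over 18 intronic transcripts to 89.6 (77.3 to 103) RPM in longissimus thoraci, 34.3 (24.3 to 47.1) in gluteus, 57.5 (46.1 to 71.0) in scapula muscle and 30.3 (21.7 to 41.3) in intercostal muscle. The list of enzymes that glycosylate alpha-dystroglycan (8 of 16 symbols, which include older and newer names of the same gene, 87 transcripts) had 42 higher and 11 lower in longissimus thoraci (48.3% and 12.6%) and 9 and 31 in gluteus (10.3% and 35.6%). It had 40 and 15 in scapula muscle (46.0% and 17.2%) and 23 and 18 in intercostal muscle (26.4% and 20.7%), to be read against the same shares of all transcripts. In both lists longissimus thoraci had more higher than lower calls and gluteus the reverse, as was so over all transcripts.

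In the glycosylation list LARGE, the enzyme that extends the laminin-binding sugar chain, had 58 intronic transcripts, which summed to 364 (339 to 390.5) RPM in longissimus thoraci, 112 (93.1 to 133) in gluteus, 313 (285 to 342) in scapula muscle and 253 (226 to 281) in intercostal muscle. ISPD, which makes the CDP-ribitol used for that chain, had 10 that summed to 51.1 (42.0 to 61.7), 11.7 (6.25 to 20.1), 14.6 (9.12 to 22.0) and 9.86 (5.25 to 16.9) RPM in the same order of muscles. B3GALNT2 had 11, at 56.3 (46.7 to 67.3), 16.3 (9.63 to 25.7), 29.1 (21.2 to 39.1) and 21.2 (14.1 to 30.7) RPM in that order. LARGE and B3GALNT2 thus had their lowest sums in gluteus, like SGCD, and ISPD was low in every muscle but longissimus thoraci. In FPKM the LARGE sum was highest in scapula muscle, at 1244 against 1140 in longissimus thoraci.

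The list of cytoskeletal partners and membrane repair genes (6 of 11 genes, 42 transcripts) had 15 higher (35.7%) and 9 lower (21.4%) in longissimus thoraci, next to the 37.2% and 21.3% of all transcripts. It had 23 and 1 in scapula muscle (54.8% and 2.38%, against 43.2% and 11.3% of all), 5 and 8 in gluteus (11.9% and 19.0%, against 18.6% and 23.7%) and 8 and 7 in intercostal muscle (19.0% and 16.7%, against 26.4% and 17.9%). Its DYSF, dysferlin, a protein that reseals the fibre membrane, had 18 intronic transcripts that summed to 65.7 (55.2 to 77.5) RPM in longissimus thoraci, 64.1 (50.1 to 80.9) in gluteus, 64.2 (52.0 to 78.3) in scapula muscle and 22.0 (14.7 to 31.6) in intercostal muscle. Only intercostal muscle stood apart there. In FPKM the DYSF sum was highest in scapula muscle, at 307 against 252 in longissimus thoraci. The neuromuscular junction list had 4 transcripts at 3 of its 9 genes, too few to describe as a group.

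**Figure D3:**
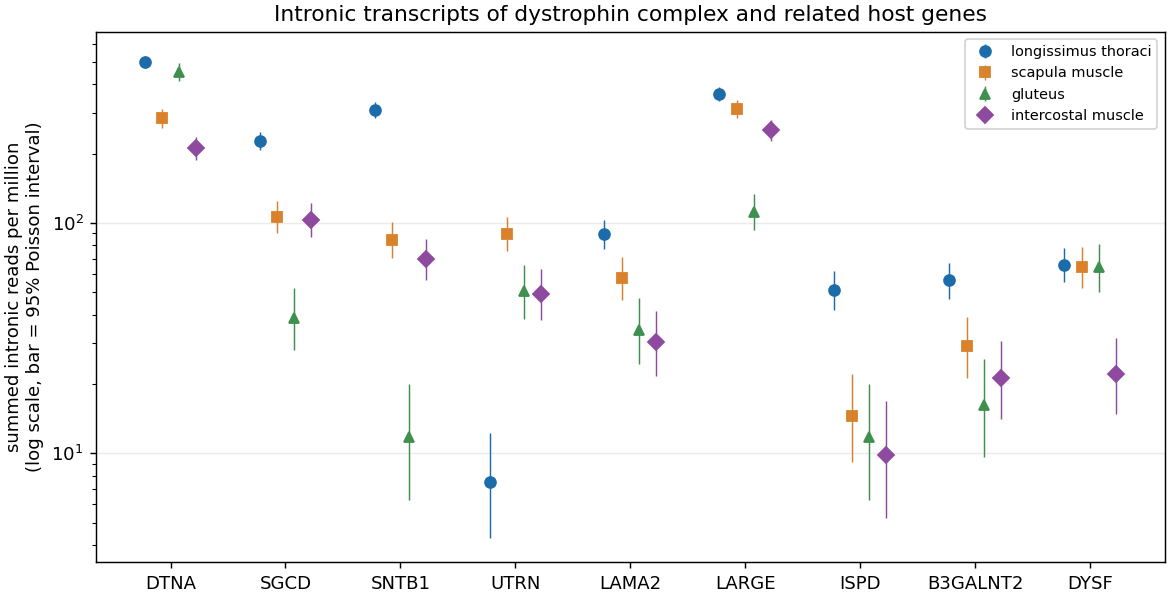
Summed intronic RPM on a log axis for DTNA, SGCD and the 7 listed genes with 10 or more transcripts, with 1 point per muscle and bars for 95% Poisson intervals. In RPM longissimus thoraci is the highest point for every gene drawn but UTRN, where it is the lowest. Its interval overlaps that of another muscle for DTNA, LARGE and DYSF, and in FPKM LARGE and DYSF were highest in scapula muscle. Gluteus is high for DTNA but lowest for SGCD, SNTB1, LARGE and B3GALNT2.

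Marker genes were read through the same kind of transcript. Of 13 skeletal muscle fibre genes, 7 had candidates, with a summed 29481 FPKM in longissimus thoraci, 52865 in gluteus, 46260.3 in scapula muscle and 60684 in intercostal muscle. Nearly all of this sum came from NEB, the giant thin-filament protein nebulin, and ACTN2, the Z-disc protein alpha-actinin. NEB introns were lowest in longissimus thoraci, at 16266 FPKM against 37412 to 44270 elsewhere. The ACTN2 antisense transcript stood at 12313 FPKM there, above the 7981 of scapula muscle and 8838 of gluteus and below the 15571 of intercostal muscle. The fibre genes thus had no common order of muscles. Of 10 smooth muscle and pericyte genes, whose cells also make delta-sarcoglycan, 7 had candidates that summed to 1265, 1371, 1014 and 2552 FPKM in longissimus thoraci, scapula muscle, gluteus and intercostal muscle, with TAGLN, CNN1 and NOTCH3 listed in none of them. The 4 fibroblast genes with candidates, of 6, summed to 1244, 5799, 1030 and 2665 FPKM in the same order, and COL1A2 and LUM were listed in none. The 2 adipocyte genes with candidates, of 7, summed to 42.3, 221, 17.4 and 428 FPKM, with ADIPOQ, PLIN1, LEP, FABP4 and CIDEC not listed. The sums of the smooth muscle, fibroblast, adipocyte and leukocyte genes were lowest in gluteus and next lowest in longissimus thoraci. The endothelial sum was lowest in longissimus thoraci, and the nerve and Schwann cell sum in scapula muscle. SGCD introns were lowest in gluteus and highest in longissimus thoraci. Each sum rests on a few transcripts, and single genes differed. The fibroblast sum is mostly the COL3A1 antisense transcript, and PDGFRB introns were highest in gluteus, at 109 FPKM. Candidates at 3 of 6 endothelial genes summed to 96.5, 216, 113 and 233 FPKM, at 3 of 6 nerve and Schwann cell genes to 97.3, 76.6, 160.2 and 114, and at 3 of 4 leukocyte genes to 88.0, 178, 72.2 and 134, in the order longissimus thoraci, scapula muscle, gluteus, intercostal muscle. The 1 satellite cell gene of 3 with a candidate, CALCR, was listed in scapula muscle alone, at 22.7 FPKM. The part of these cells in the SGCD and DTNA values was not tested.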

How the data were processed

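Per the labels, total RNA of 3 animals was pooled for each of 4 muscles and sequenced by standard Illumina protocols. TopHat2 2.0.9 and Cufflinks 2.1.1 are named beside genome build UMD3.1 in the submitters' processing notes, which state no role for them. No source used here gives the filters or the annotation version. The authors deposited 1 FPKM per transcript and library, listing values above 0, with no coordinates. The 8-part identifier names the gene and a Cufflinks class (i within an intron, x exonic overlap on the opposite strand). Both gene names are protein-coding genes in the RefSeq gene table.

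Whole reads were recovered: for all 115374 values a library total gave whole reads over a whole length with relative error under 1e-11, and a transcript's length was held equal across libraries. Recovered reads and lengths are lower bounds, so the interval of a single FPKM value is at its widest. In RPM sums and read shares they also lower the value itself, unevenly between transcripts. The intervals of RPM sums can therefore lie below the true value. Overlapping transcripts may share reads. Intervals cover counting error only, since PCR copies are not independent molecules. The library totals ran from 1107493 to 2132255 reads, and what they count is not stated by any source used here. Recovered reads of all listed transcripts came to 99.0% of the total in longissimus thoraci and 100.0% in scapula muscle. In gluteus they came to 102.6% and in intercostal muscle to 100.9%. The totals are therefore close to the reads on listed candidates. The recovery and the calls were tested on simulated data.

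Transcripts that are not listed entered ratios as 0. Calls are a rule of size with a pseudocount of 1 FPKM, which understates ratios of low transcripts, and with 1 library per muscle no test was made. The naming rule gives values for the 5 transcripts per gene of highest mean level and those listed in every muscle or antisense, for listed genes with at least 10 transcripts (at most 8 per list), and for the 5 hosts most alike. Members and lists were chosen with earlier results of these data known. Alternatives were another pseudocount, filter, reference, scaling and sum, and leaving out libraries. Python 3.11.15, pandas 2.3.3 and SciPy 1.17.1 were used.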

Additional observations from a re-analysis of the deposited data

How the results depend on the processing

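Pseudocounts of 0.1 and 5 FPKM, no filter on low values, and rescaling of libraries by the median ratio over the 7188 transcripts listed in every muscle kept every count of higher and lower DTNA and SGCD intronic transcripts within 1.5 times, and the rescaling kept every summed ratio within its counting interval. Requiring 10 recovered reads in 1 library, a filter on lower bounds, gave 3 DTNA transcripts higher in gluteus and 7 SGCD transcripts higher in scapula muscle. Requiring 2-fold beyond each of the other 3 muscles asks more by construction. It gave for DTNA 0 lower in longissimus thoraci, 3 higher and 1 lower in scapula muscle, 1 lower in gluteus, and 1 higher and 1 lower in intercostal muscle. For SGCD it gave 0 lower in longissimus thoraci, 4 higher and 0 lower in scapula muscle, 3 lower in gluteus, and 3 higher and 2 lower in intercostal muscle. The log2 ratio of the DTNA sum in longissimus thoraci, 1.09, became 1.24 without the transcript of highest mean level, 1.33 without its locus and 0.81 in RPM. In scapula muscle it went from -0.40 to -0.25, -0.051 and -0.66 under the same changes and to -0.058 over transcripts with 10 reads. In gluteus it went from 0.40 to 0.25, 0.051, 0.66 and 0.058. In intercostal muscle it went from -0.96 to -0.68 without the locus and -0.76 over transcripts with 10 reads. For SGCD it went in longissimus thoraci from 1.16 to 1.44 without the transcript of highest mean level (its locus holds no other) and 1.34 over transcripts with 10 reads, and in gluteus from -0.91 to -1.46 in RPM. In scapula muscle it went from 0.05 to 0.39 and -0.27, and in intercostal muscle from -0.05 to -0.39 and 0.27. The cause was not tested where a filter or unit changed a value.

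Leaving out each other library in turn, an alternative chosen after seeing the data, leaves a median of 2 values, which is their mean, so more transcripts count as lower. DTNA counts higher ran from 12 to 14 in longissimus thoraci, 4 to 8 in scapula muscle, 5 to 8 in gluteus, with 2 to 3 in intercostal muscle, and lower from 6 to 10, 9 to 17, 9 to 15 and 13 to 18. SGCD counts higher ran from 12 to 13, 5 to 10, 3 to 4 and 6 to 6, and lower from 8 to 10, 6 to 14, 16 to 19 and 12 to 16. The DTNA sum ratio ran from 0.87 to 1.34 in longissimus thoraci, -0.79 to -0.0015 in scapula muscle, -0.24 to 0.65 in gluteus, with -1.34 to -0.77 in intercostal muscle, and that of SGCD from 1.13 to 1.53, -0.64 to 0.42, -1.57 to -0.89 and -0.71 to 0.33. The DTNA ratio in gluteus was negative without the scapula library (-0.086) or the intercostal library (-0.24), the SGCD ratio in scapula muscle was negative without the gluteus (-0.64) or intercostal library (-0.42), and that in intercostal muscle was positive without the longissimus thoraci library (0.33). Leaving out the locus was also chosen after seeing the data. No paired analysis was possible because each muscle has 1 library. Gluteus has the smallest library total, with 43 recovered SGCD intronic reads, which limits its values most.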

Other observations

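Antisense candidates of other genes tied to the complex, chosen after their values were seen, differed from the introns of their genes in some cases and not in others. SNTB1, with introns highest in longissimus thoraci and lowest in gluteus, had an antisense transcript at 743 FPKM in longissimus thoraci, 1195 in gluteus, 379 in scapula muscle and 263 in intercostal muscle. LARGE, with introns likewise lowest in gluteus, had one at 129 FPKM in longissimus thoraci, 373 in gluteus, 243 in scapula muscle and 410.3 in intercostal muscle. At ISPD, in contrast, antisense and introns were both highest in longissimus thoraci, with antisense values of 83.0, 13.2, 58.0 and 50.5 FPKM in the same order. The antisense transcript of MUSK, the receptor kinase that organises the neuromuscular junction, stood at 56.4 FPKM in longissimus thoraci, 14.2 in gluteus, 34.6 in scapula muscle and 7.27 in intercostal muscle. That of ANO5, a membrane protein mutated in a limb-girdle dystrophy, ranged from 75.6 FPKM in intercostal muscle to 128 in longissimus thoraci, where its introns were highest too, at 183 FPKM. That of ANK2, an ankyrin that binds dystrophin, stood at 68.9 FPKM in longissimus thoraci, 208 in gluteus, 315 in scapula muscle and 244 in intercostal muscle. Its introns were likewise highest in scapula muscle, at 172 FPKM, but the rest of the order differed. They summed to 76.4 FPKM in longissimus thoraci and were not listed in gluteus or intercostal muscle.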
